A study of Arabidopsis thaliana with 6 samples.

Results

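The arrays coded CLM, CLH and CLL are 3 of the 6 arrays of a study of Arabidopsis thaliana during acclimation to light intensity, and they were chosen by the start of their code, CL. The other 3 arrays, CVM, CVH and CVL, share the endings but start with CV. Each array measured RNA from unshaded rosette leaves of accession Ws-2 at growth stage 3.90, with no genetic modification recorded, grown at 60% humidity in normal atmosphere. For CLL and CVL alone the growth record also names M2 compost, watering, a dark period of 16 hours and a dark temperature of 15 °C. The labels do not explain the letters, so the arrays were given no light level here, and the number of plants pooled was left blank. Each code had 1 array, so no difference below has a replicate check, an error or a test.

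Leaves moved between light environments adjust the size of the antennae that collect light, the enzymes that fix carbon dioxide and the systems that detoxify reactive oxygen. Sugar made in the light and the lack of sugar in the dark switch separate sets of genes on, among them genes of starch storage on one side and genes of autophagy and nutrient recycling on the other. Many genes of cold and drought protection also respond to light, to the clock and to the stress hormone abscisic acid.

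The deposited values are signals on a linear intensity scale, and the levels of different probe sets are not compared here. Differences are log2(signal + 3.9), CLM minus CLL or CLH minus CLL, so that a positive value means higher on CLM or CLH, and the offset understates the change of dim probe sets. Of 8247 probe sets without controls, 4501 had a mean of 20 or more over the 3 arrays. The lowest mean kept was 20 and the highest left out was 19.97. A probe set is called past the fold when the difference is 1 or more in size, a 2-fold difference in signal + 3.9, and inside the fold when it is smaller. Both comparisons use the single CLL array, so an error in that array moves both alike, and the same sign at M and H is only what the choice of probe sets asks for.

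Median signals over all probe sets were 24.8 on CLM, 24.0 on CLH and 26.2 on CLL, and average backgrounds were 64.0, 64.5 and 56.1 in that order. The ratio of 3' to 5' signal for GAPDH, a control for RNA integrity, was 2.81 on CLM, 6.22 on CLH and 3.76 on CLL, and lay between 3.20 and 5.50 on the CV arrays. CLH thus had the highest ratio of the 6, beside the larger number of probe sets past the fold described below, and the part of the ratio in that number was not tested. RCA, the activase of the carbon-fixing enzyme Rubisco, was the 1 of 8 leaf mesophyll markers measured, with signals of 10819.5 on CLM, 10705.6 on CLH and 9305.3 on CLL. Among 13 flower and anther markers only TUA1, an alpha tubulin, was measured (138.4, 118.0 and 130.2), while AT5G07230, an anther marker left out for its low mean, had 6.5 on CLM and 8.5 on CLH, against 33.1 on CLL. The lists for root, seed, epidermis, vascular tissue, guard cells with trichomes, and dividing cells had no measured member. In whole leaves, fewer cells of a type and less RNA per cell cannot be told apart.

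Against CLL, 117 probe sets were past the fold upward on CLM (2.60% of 4501) and 115 downward (2.55%). On CLH, 144 were past the fold upward (3.20%) and 207 downward (4.60%). The split between up and down moved with the scaling. Upward calls made up 50.4% of the calls on CLM and 41.0% on CLH as deposited, 56.9% and 52.6% after quantile normalization, and 60.8% and 59.4% after centring each array on its median. Centring shifted the median of all probe sets by 0.05 on CLM and 0.14 on CLH. Between CLH and CLM, a comparison without CLL, 91 probe sets were past the fold upward on CLH (2.02%) and 147 downward (3.27%), so CLH and CLM stood apart by about as many probe sets as CLM and CLL. In either direction the shares were 5.15% for CLM against CLL, 7.80% for CLH against CLL and 5.29% for CLH against CLM.

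Past the fold in the same direction on CLM and CLH were 68 probe sets upward (1.51%) and 35 downward (0.778%). The median difference of the 68 was 1.47 on CLM and 1.59 on CLH, and 43 of them were farther from CLL on CLH. The 35 had medians of -1.62 and -1.69, with 20 farther from CLL on CLH and 14 farther on CLM. In 7 of the 68 and 5 of the 35, CLH and CLM were themselves past the fold from each other. The array annotation names 1 gene for 21 of the 68 and for 9 of the 35, and no gene for 47 and 25, so that most of these probe sets stay without a name here. With 1 probe set taken per gene (1798 genes), 20 genes were higher past the fold on both arrays (1.11%) and 7 lower (0.389%). At the edge of the fold upward, AT4G32340 was just past it with differences of 1.30 and 1.01 and AT1G21680 just short of it with 0.99 and 0.98. Downward, AT4G24350 was just past it with -1.11 and -1.01, and SBE2.2 just short of it on CLH with -1.34 and -0.998.

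**Figure D1:**
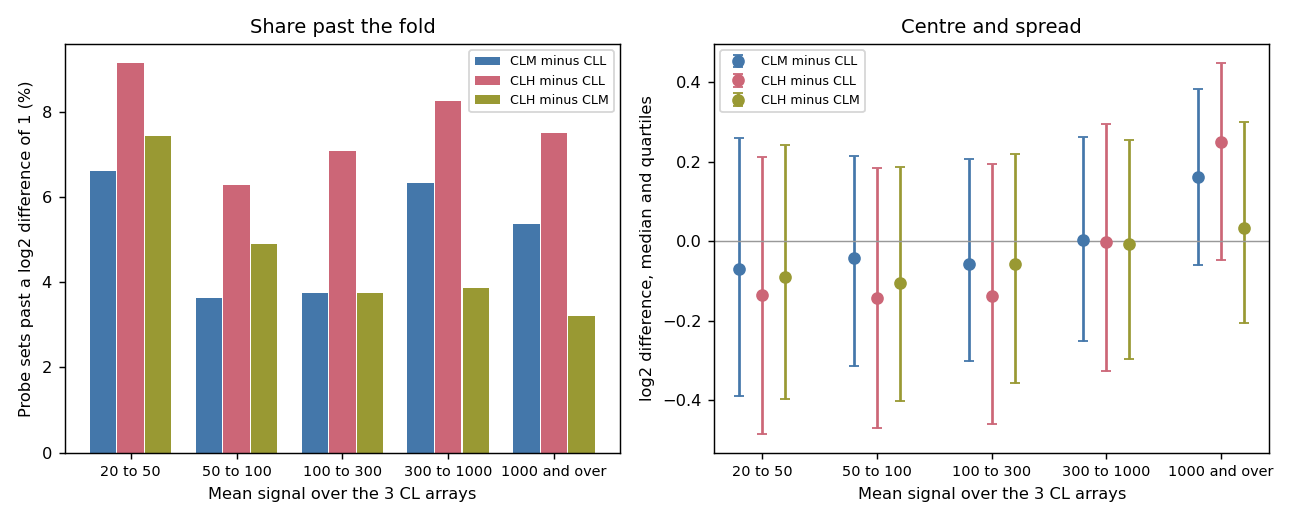
Bars (left) give the percent of probe sets past a log2 difference of 1 in either direction, and points with bars (right) the median and quartiles of the log2 differences, for probe sets binned by mean signal over the 3 CL arrays. Every bin has probe sets past the fold in all 3 comparisons, and the medians of the bin of 1000 and over lie at 0.16 for CLM minus CLL and 0.25 for CLH minus CLL.

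The share past the fold followed no single order with signal, as the plot by mean signal shows. On CLM, 6.61% of probe sets with means from 20 to 50 were past the fold, and 5.36% of those of 1000 and over. On CLH the shares were 9.13% and 7.50%. The brightest bin had a median of 0.16 on CLM and 0.25 on CLH, against -0.03 and -0.09 over all probe sets kept, which bears on the bright photosynthesis genes below.

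The largest difference upward among the genes ranked by their smaller difference was that of AT3G15450, a member of the list of genes induced by sugar starvation and darkness. Its signal was 430.5 on CLM and 200.2 on CLH, against 17.2 on CLL, with differences of 4.36 and 3.27. Both arrays stood far above CLL, and CLM above CLH by 1.09 on the log2 scale. The other measured member of that list, MCCB, a subunit of the enzyme that breaks down leucine, had 34.0 on CLM, 17.3 on CLH and 27.9 on CLL, inside the fold on both.

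Genes of cold and drought protection formed the list with the most members past the fold in 1 direction. Of its 30 genes 6 were measured. On CLM 3 of the 6 were past the fold upward and 0 downward, and on CLH 4 and 0, where 1.78% of all genes were past it upward on CLM and 3.11% on CLH. This list, like the others, was chosen with earlier results of these data known. The counts beside the shares of all genes are thus a description and no evidence of enrichment. The list's median difference was 1.07 on CLM and 1.31 on CLH, against -0.02 and -0.10 over all genes. Both medians stayed positive after quantile normalization, with 0.94 on CLM, and after centring, with 1.12 on CLM and 1.45 on CLH.

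LTI30, a dehydrin that builds up in the cold, had 545.1 on CLM and 677.8 on CLH, against 77.3 on CLL, with differences of 2.76 and 3.07. COR47, also a dehydrin, had 3043.8 and 3082.5, against 1048.6 on CLL, with differences of 1.53 and 1.55. Both dehydrins were at similar signals on CLM and CLH and lower on CLL. A second probe set for COR47 gave 1.58 on CLM and 0.86 on CLH, the CLH value inside the fold. COR15B, a chloroplast protein induced by cold, had 3992.1 on CLM and 5030.9 on CLH, against 1620.6 on CLL, with differences of 1.30 and 1.63. KIN2, a small protein induced by cold and abscisic acid, had 8642.4 and 12211.2, against 5834.6 on CLL, and was past the fold on CLH only, at 0.57 on CLM and 1.07 on CLH. Its second probe set gave 0.49 and 0.87, in the same order but inside the fold on both, and after quantile normalization the first set gave 0.74 on CLH. LEA4-5, a late embryogenesis abundant protein, was dim, with 32.7 and 33.7 against 16.6 on CLL. STZ, a zinc finger protein of stress responses, differed from the others, with 104.9 on CLM and 219.2 on CLH, against 150.6 on CLL. It was thus lower than CLL on CLM and higher on CLH, and its second probe set gave the same signs with -0.54 and 1.37. The probe sets of LTI30 and COR47 have the ending _s_at, which marks probes shared with related sequences, so related dehydrin genes may add to their signals. The same ending stands on the probe set of PORB, described next.

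**Figure D2:**
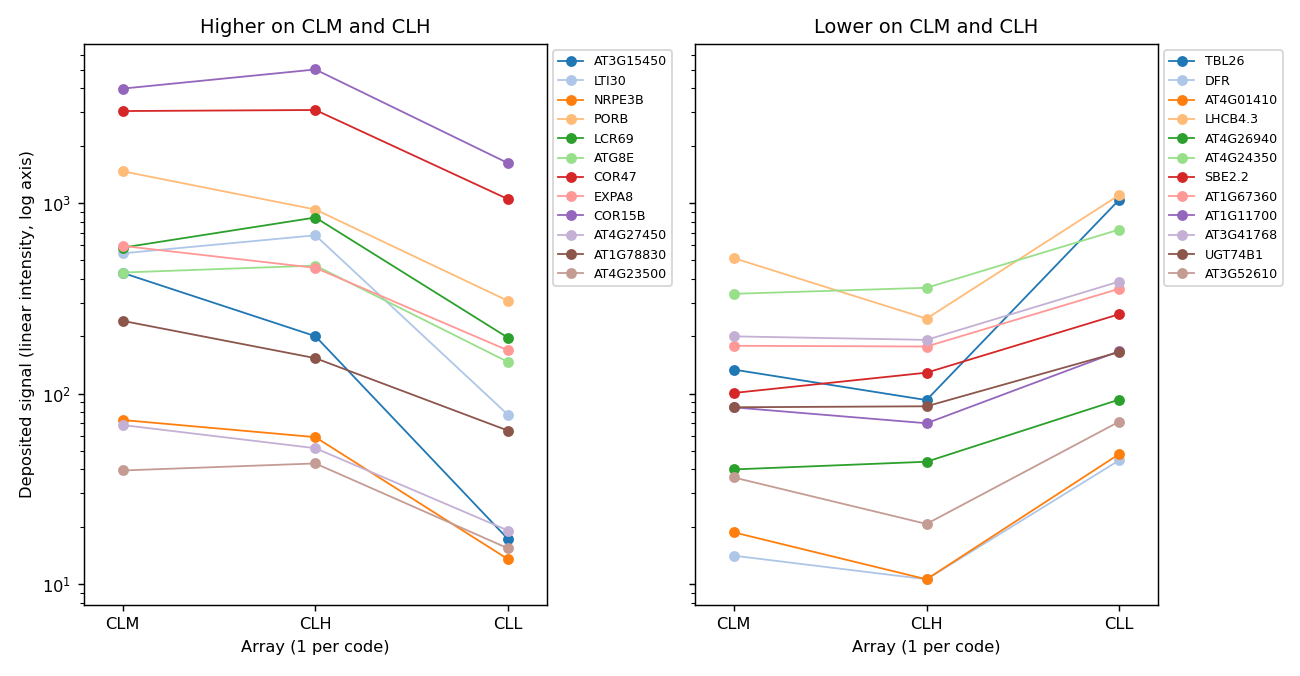
Deposited signal (linear intensity, log axis) on CLM, CLH and CLL for the 12 genes higher (left) and the 12 lower (right) on both CLM and CLH with the largest smaller difference, each line 1 gene and each point 1 array. All lines on the left are lowest at CLL and all on the right highest there, as the choice of genes requires. For AT3G15450 on the left and LHCB4.3 on the right, CLM and CLH are also past the fold from each other.

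PORB, a protochlorophyllide oxidoreductase that carries out the light-dependent step of chlorophyll synthesis, had 1470 on CLM and 925.7 on CLH, against 306.6 on CLL, with differences of 2.25 and 1.58. It was the 1 of 4 measured chlorophyll synthesis genes past the fold, upward on both arrays. Among all genes, 1.78% were past it upward on CLM and 3.11% on CLH. The other 3, AT1G74470, LIL3:1 and GSA1, lay between 0.10 and 0.48 on CLM and between -0.53 and 0.15 on CLH. LIL3:1, a light-harvesting-like protein that works with chlorophyll synthesis, had 776.7 on CLM and 501.1 on CLH, against 724.5 on CLL. The list's median was 0.32 on CLM and -0.05 on CLH, and the second of these turned to 0.08 when arrays were centred on their medians.

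ATG8E was the 1 of 6 measured ATG8 genes past the fold, upward on both arrays. Of all genes, 1.78% were past it upward on CLM and 3.11% on CLH. ATG8 proteins are ubiquitin-like and coat the membrane that encloses cell contents during autophagy. ATG8E had 432.3 on CLM and 470.1 on CLH, against 146.5 on CLL, with differences of 1.54 and 1.66. The other 5 measured members, ATG8F, ATG8D, APG8A, ATG8C and ATG8B, lay between -0.38 and 0.42 on CLM and between -0.32 and 0.45 on CLH, all inside the fold. The probe set of ATG8E is an _s_at set, so related sequences may add to its signal, and those of the other 5 have the plain _at ending. The family's median was 0.36 on CLM and 0.09 on CLH, and both stayed positive after quantile normalization and after centring.

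The remaining named genes with higher signal on both arrays had varied roles. EXPA8, an expansin that loosens cell walls, had 596.4 on CLM and 457.3 on CLH, against 168.5 on CLL, with differences of 1.80 and 1.42. LCR69, a defensin-like peptide, had 583.9 and 840.5, against 196.3 on CLL, with differences of 1.55 and 2.08. For both genes the 2 arrays were well above CLL, with EXPA8 higher on CLM and LCR69 higher on CLH. The probe set of LCR69 has the _s_at ending, so related sequences may add to its signal. NRPE3B, a subunit of the plant RNA polymerase V, had 72.7 and 59.1, against 13.5 on CLL, with differences of 2.14 and 1.86. AT1G78830, with no symbol in the tables used, had 241.0 and 153.5, against 63.9 on CLL, with differences of 1.85 and 1.22. AT4G27450 was higher on both arrays too, with 68.4 and 51.7 against 19.1 on CLL. So was AT4G23500, with 39.5 and 43.0 against 15.4 on CLL. With an offset of 16, AT4G27450 on CLH and AT4G23500 on both arrays lay inside the fold, at 0.95, 0.82 and 0.91. In 3 further genes a signal was under 10 on CLL, so that only signals are given. UGT73C1, a glycosyltransferase, had 23.2 on CLM and 31.1 on CLH, against 5.8 on CLL. AT2G24550 had 37.9 and 24.8 against 8.8 on CLL, and AT2G33845 had 24.4 and 33.2 against 9.6 on CLL. All 3 were dim on every array.

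Among genes lower on CLM and CLH, the leading ones act on the cell wall. TBL26, of the family whose members attach acetyl groups to wall polysaccharides, had 133.7 on CLM and 92.5 on CLH, against 1042.9 on CLL, with differences of -2.93 and -3.44. CSLA01, of a family of mannan synthases, had 34.8 and 3.3, against 875.4 on CLL, and is given by its signals because CLH lies under 10. Both genes were far higher on CLL than on the other 2 arrays. XTH32, an enzyme that cuts and rejoins xyloglucan, had 130.6 on CLM and 68.7 on CLH, against 150.6 on CLL, and was past the fold on CLH only at -1.09, or inside it at -0.95 after quantile normalization and after centring. EXPA4, a second expansin, had 204.4 and 117.8, against 150.8 on CLL, inside the fold on both. Of the 33 genes in the cell wall list 5 were measured. With EXPA8 upward, 1 was past the fold upward and 2 downward on CLM, and 1 upward and 3 downward on CLH. The downward counts include CSLA01, whose fold on CLH is not measured at a signal of 3.3. Over all genes, 1.78% on CLM and 3.11% on CLH were past the fold upward, and 1.72% and 4.23% downward. The members did not share a direction.

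LHCB4.3, one of the minor chlorophyll-binding antenna proteins beside photosystem II, had 514.6 on CLM and 247.5 on CLH, against 1103.1 on CLL, with differences of -1.09 and -2.14. CLH was lower than CLM by 1.04 in size, so the 3 arrays were all apart. The other 2 measured antenna genes went the other way as deposited. LHCB4.1, a close relative, had 12240.5 on CLM and 10405.4 on CLH, against 9477.6 on CLL, and LHB1B2, a protein of the main antenna, had 5951.8 and 7178.3, against 4573.1 on CLL. Their differences were 0.37 and 0.13 for LHCB4.1 and 0.38 and 0.65 for LHB1B2, inside the fold. The probe sets of LHCB4.3 and LHB1B2 have the _s_at ending, so related sequences may add to their signals. All 4 measured genes of the photosystem core and electron transport list were slightly higher than CLL as deposited, from 0.31 to 0.76 on CLM and from 0.14 to 0.76 on CLH, with PSAN, a photosystem I subunit, the farthest. PSAN had 5100.6 on CLM and 5084.6 on CLH, against 3006.5 on CLL. The median of this list, 0.38 on CLM and 0.30 on CLH, became 0.05 and -0.08 after quantile normalization, and that of the 3 antenna genes, 0.37 and 0.13, became -0.01 and -0.26. The median of the 3 Calvin cycle genes, RCA, PRK and SBPASE, turned likewise, at 0.22 and 0.20 as deposited and -0.06 and -0.17 after quantile normalization. No direction was therefore given for the antenna list or the Calvin cycle list on either array, or for the photosystem core list on CLH.

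Of 20 genes in the starch and sugar-induced list 2 were measured. On CLM both were past the fold downward, where 1.72% of all genes were, and on CLH 0 of the 2 were. SBE2.2, a starch branching enzyme, had 100.8 on CLM and 128.8 on CLH, against 261.2 on CLL, with differences of -1.34 and -0.998. APL3, a large subunit of the enzyme that makes the sugar donor for starch and one that is induced by sugar, had 51.2 and 55.4, against 107.0 on CLL, with differences of -1.01 and -0.90. Both genes were highest on CLL and APL3 was inside the fold on CLM too after quantile normalization, at -0.99. DFR, the reductase that leads into anthocyanins, was the 1 measured member of 19 in the flavonoid list. Its signal of 14.1 on CLM and 10.6 on CLH, against 44.7 on CLL, was dim throughout, with differences of -1.43 and -1.74.

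AT4G24350 was also lower on both arrays, with 334.1 on CLM and 359.5 on CLH, against 726.5 on CLL. Its second probe set gave -1.03 on CLM and -0.33 on CLH, and on CLH the first set lay inside the fold after quantile normalization, at -0.99. AT1G67360 had 178.3 and 176.7, against 355.3 on CLL, and UGT74B1, a glycosyltransferase of glucosinolate synthesis, had 84.8 and 85.8, against 165.3 on CLL. Both had nearly equal signals on CLM and CLH, and both lay just short of the fold, from -0.99 to -0.92. AT1G11700 had 84.7 and 69.9, against 167.1 on CLL, and was past the fold on CLH alone at -1.21. AT3G52610 had 36.3 and 20.7, against 71.3 on CLL, with differences of -0.90 and -1.61. AT4G01410 and AT4G26940 were past the fold on both arrays at low signal, with 18.7 and 10.6 against 48.2 on CLL for the first and 40.0 and 43.9 against 93.1 on CLL for the second. On CLH the second lay inside the fold after quantile normalization, at -0.89. AT3G41768 is annotated as ribosomal RNA, and its probe set had 199.8 on CLM and 191.5 on CLH, against 387.6 on CLL. The array's 25S ribosomal RNA control went the same way, with 232.5 and 265.3 against 455.2 on CLL, as did the 5S control, with 27.8 and 23.3 against 52.6. The labelling starts from an oligo(dT) primer, per the labels, and the share of ribosomal RNA carried into each sample was not tested.

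Of genes lower with a signal under 10 on an array, 5 more are given by signals. AT3G52570 had 9.1 on CLM and 27.5 on CLH, against 47.3 on CLL, and AT4G16540 had 9.3 and 33.2, against 36.4 on CLL, so both were lowest on CLM. AT4G18905 had 45.7 on CLM and 8.9 on CLH, against 65.5 on CLL. AT4G23900 had 42.3 and 6.3, against 50.2 on CLL, and AT1G09230, recorded as the U11/U12-65K protein of the minor spliceosome, had 32.9 and 4.8, against 35.1 on CLL. These last 3 were lowest on CLH and highest on CLL.

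**Figure D3:**
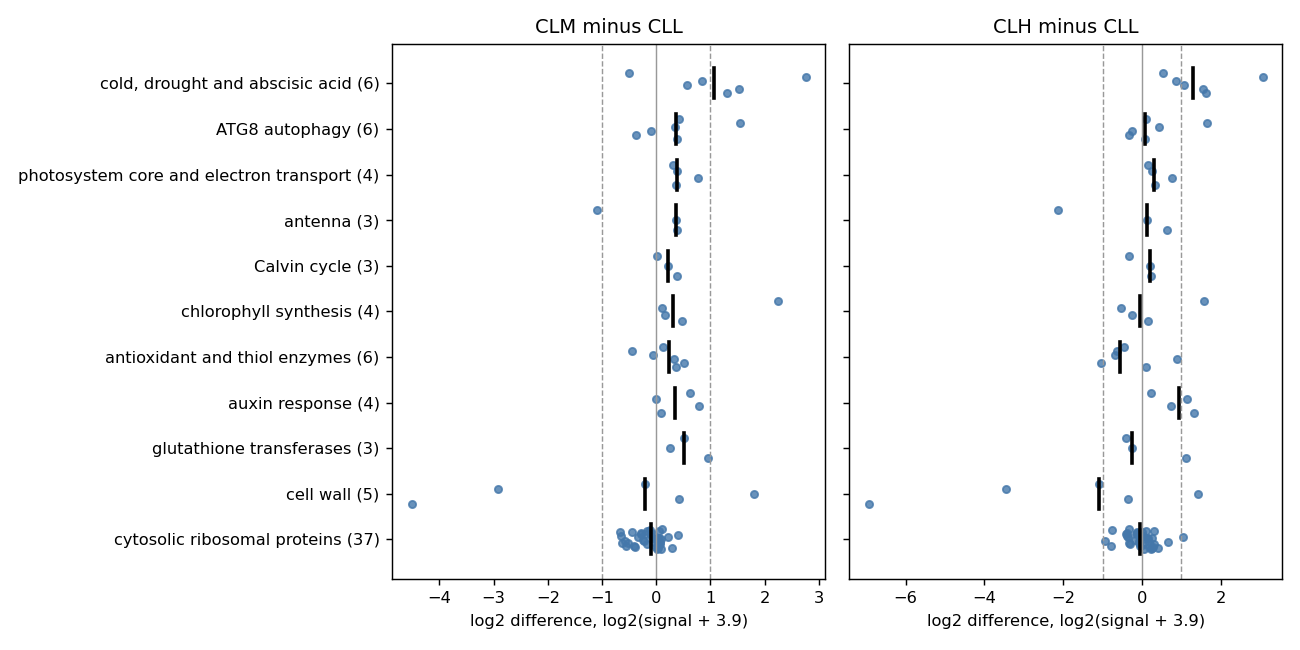
Each point is 1 gene of a list, with the number of measured genes in brackets, and its log2 difference CLM minus CLL (left) or CLH minus CLL (right), where the black bar is the list's median and the dashed lines mark the fold. The cold, drought and abscisic acid list has its median at 1.07 and 1.31, while the points of the 37 cytosolic ribosomal protein genes stay within the fold on CLM and have 1 point past it on CLH.

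Among 6 measured antioxidant and thiol enzyme genes the median was 0.23 on CLM and -0.55 on CLH, and the CLM median turned to -0.05 with probe sets of the plain _at ending alone. GR, the glutathione reductase of chloroplasts and mitochondria, had 252.2 on CLM and 82.7 on CLH, against 175.6 on CLL, and was the 1 gene of the 6 past the fold, at -1.05 on CLH, where 4.23% of all genes were past it downward. After quantile normalization and after centring it lay inside the fold, at -0.95 and -0.91. GR1, a second glutathione reductase, went the other way, with 215.2 and 316.7 against 169.7 on CLL. The reductases were thus in opposite order on CLM and CLH. The probe set of GR has the _s_at ending, so related sequences may add to its signal, and that of GR1 has the plain _at ending. NTRC, TAPX and SAPX, a chloroplast thioredoxin reductase and 2 chloroplast ascorbate peroxidases, were each lower on CLH than on CLL, by 0.47 to 0.68 in size. The second probe set of TAPX gave -0.99 on CLH. The remaining member, AT3G11630, was slightly higher than CLL on both arrays, at 0.36 on CLM and 0.11 on CLH.

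The 4 measured auxin response genes had a median of 0.35 on CLM and 0.94 on CLH. The medians moved with the filter, at 0.08 on CLM and 1.15 on CLH with a mean of 50 or more, and -0.01 on CLM and 0.38 on CLH with no filter, so no direction was given for the list on CLM. ARL, which promotes organ growth, had 59.4 on CLM and 145.2 on CLH, against 55.8 on CLL, and IAGLU, an enzyme that joins auxin to glucose, had 180.8 and 408.0, against 182.0 on CLL. These were the 2 of the 4 past the fold, at 1.32 and 1.15 on CLH, where 3.11% of all genes were past it upward, and both had CLM at the level of CLL. IAA20, an auxin-responsive repressor, had 180.7 and 173.6, against 103.0 on CLL, higher on both arrays but inside the fold. Its other probe sets, at 4.0 and 4.1 against 2.3 on CLL, and 1.6 and 1.4 against 1.2, were too dim to check this. The glutathione transferase GSTF3 had 352.9 on CLM and 398.2 on CLH, against 181.3 on CLL, with differences of 0.95 and 1.12. Its probe set has the ending _f_at and not the plain _at, so related sequences may add to its signal. GSTU18 and GSTU16 were higher on CLM and lower on CLH than on CLL, inside the fold. GI, a component of the clock, had 608.2 and 979.1, against 473.8 on CLL, but its 4 probe sets gave 1.04, 0.90, -0.11 and -0.11 on CLH and did not show 1 direction. The 37 measured cytosolic ribosomal protein genes of 98 listed had medians of -0.09 on CLM and -0.05 on CLH, with 0 past the fold on CLM and 1, AT2G45710, on CLH at 1.04, a share near the 3.11% of all genes upward on CLH. The CLH median turned to 0.09 after centring, so no direction was given for this list there. Lists with 1 or 2 measured genes and none past the fold included photorespiration, with HPR and AT1G11860 at 0.11 and 0.05 on CLM and -0.24 and -0.59 on CLH, and senescence, with WRKY6 and SAG29 at 0.01 and 0.56 on CLM and 0.13 and 0.31 on CLH. LYC, the lycopene cyclase of carotenoid synthesis, was at -0.27 and -0.14, and its second probe set at 0.13 and -1.03. ACT11, an actin often used as a reference, was at -0.33 and -0.39.

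**Figure D4:**
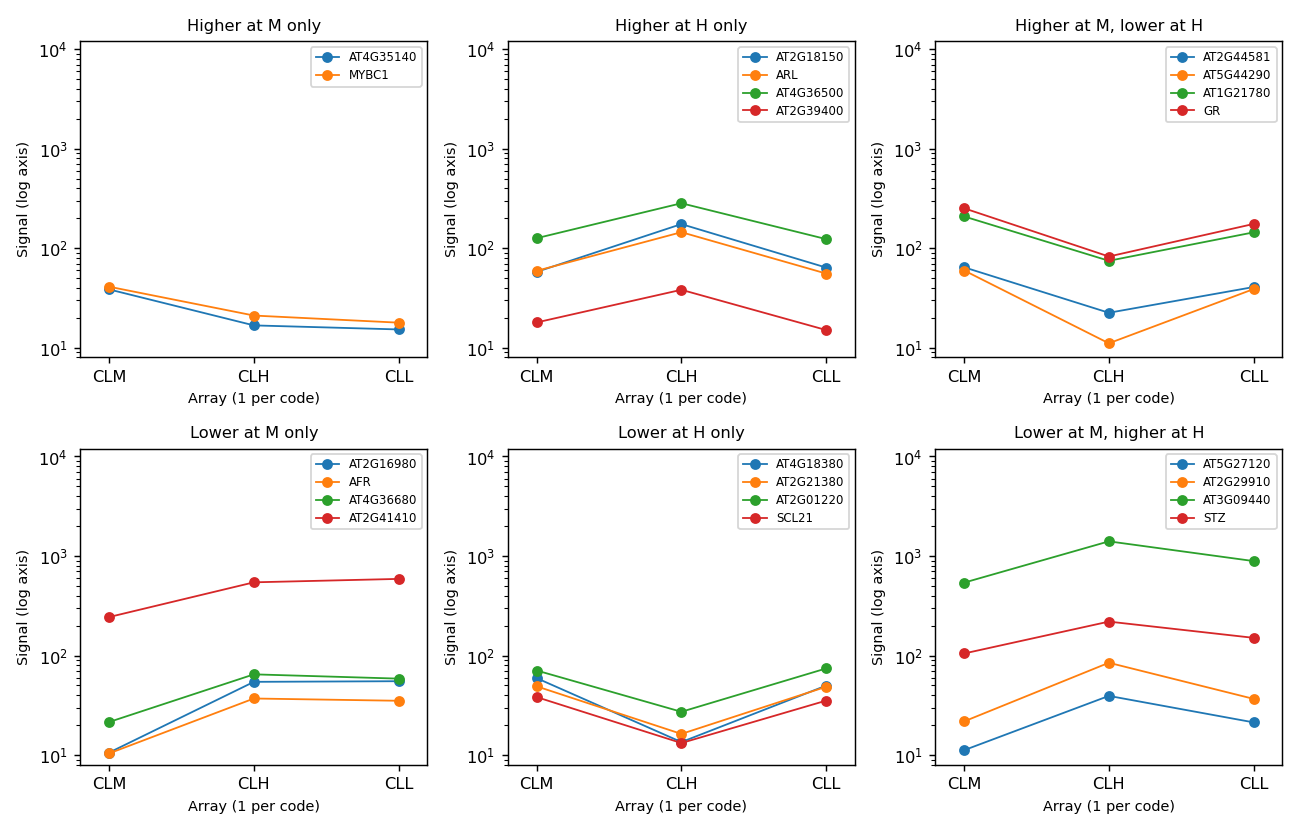
Deposited signal (linear intensity, log axis) on CLM, CLH and CLL for genes past the fold at M only or H only (first 2 columns) and with opposite signs at M and H (right column), each line 1 gene and each point 1 array. In the panels for H only the CLH point stands off from CLM and CLL, and in the panel for lower at M only the CLM point does.

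A further group of probe sets separated the endings. Past the fold on CLM with a difference under 0.25 in size on CLH were 10 probe sets upward (0.222%) and 21 downward (0.467%). Past it on CLH with a difference under 0.25 in size on CLM were 15 upward (0.333%) and 48 downward (1.07%). Differences of 0.5 or more in size and of opposite signs were seen in 24 probe sets higher on CLM and lower on CLH (0.533%), and in 20 lower on CLM and higher on CLH (0.444%).

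On CLM alone, AT4G35140 had 38.6, with 16.8 on CLH and 15.3 on CLL, and the MYB family gene MYBC1 had 41.1, with 21.1 on CLH and 17.9 on CLL. These were the 2 genes named upward, and both were dim. Downward, AT2G41410 had 243.8 on CLM, with 544.0 on CLH and 588.8 on CLL, but its second probe set was past the fold on CLH too, at -1.84 on CLM and -1.18 on CLH. AFR, an F-box protein of far-red light signalling, had 10.4 on CLM, with 37.0 on CLH and 35.1 on CLL. AT2G16980 had 10.6, with 54.4 on CLH and 55.2 on CLL, and AT4G36680 had 21.5, with 64.7 on CLH and 58.6 on CLL. In all 3, CLH and CLL were close and CLM lower.

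On CLH alone, AT4G36500 had 283.7, with 126.4 on CLM and 123.8 on CLL, and AT2G18150 had 175.1, with 58.0 on CLM and 64.1 on CLL. AT2G39400 had 38.3, with 18.0 on CLM and 15.1 on CLL. In these, as in ARL, CLM and CLL were nearly equal. Downward, AT2G01220 had 27.2 on CLH, with 70.7 on CLM and 74.1 on CLL, though its second probe set was lower on both, at -1.14 on CLM and -1.69 on CLH. SCL21, of the GRAS family of regulators, had 13.2 on CLH, with 38.2 on CLM and 35.2 on CLL. AT4G18380 and AT2G21380 followed the same order, with 13.5 and 16.3 on CLH, where CLM and CLL lay between 48.5 and 59.2.

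Opposite signs were found in dim and in bright genes. AT5G44290 had 59.8 on CLM and 11.1 on CLH, with 38.9 on CLL, and AT2G44581 had 64.4 and 22.5, with 40.8 on CLL. AT1G21780 had 208.8 and 74.9, with 144.6 on CLL, and it shared this order with GR, described above. In the other direction, AT3G09440 had 540.4 on CLM and 1403.8 on CLH, with 889.5 on CLL, and its second probe set gave -0.44 and 0.15. AT2G29910 had 21.8 and 84.6, with 36.7 on CLL, but its second probe set gave -0.12 and -0.60, so the pair did not share a direction on CLH. AT5G27120 had 11.2 and 39.3, with 21.3 on CLL.

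In CLH against CLM, with CLL left out, the differences upward were led by AT2G16980 at 2.01, AT2G29910 at 1.78, AT4G03295, annotated as a small nucleolar RNA, at 1.77, and AT2G18150 at 1.53. AT4G03295 had 89.3 on CLH and 23.4 on CLM, with 31.5 on CLL. Downward they were led by AT4G19110 at -2.25, AT5G44290 at -2.09, AT4G18380 at -1.86 and UBP16, a ubiquitin-specific protease, at -1.69. AT4G19110 had 14.0 on CLH and 81.1 on CLM, with 65.9 on CLL, and UBP16 had 13.9 on CLH and 53.5 on CLM, with 37.4 on CLL. All 4 of the downward genes had CLH under both other arrays at signals between 10 and 15.

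Where a gene had more than 1 probe set, the gap between the differences from CLL of its sets gave a measure of spread. Each such difference uses 2 arrays, and sets for the same gene can read different or shared sequences. Over 80 pairs of kept probe sets for the same gene, the median gap between the differences was 0.23 on CLM and 0.50 on CLH. In 3 pairs the brighter set was past the fold on CLM, and in all 3 the dimmer set was past it with the same sign. The reverse did not hold, since in other pairs only the dimmer set was past the fold on CLM. It gave 1.11 against 0.45 for TMT1, 1.08 against 0.96 for CP5 and -1.14 against -0.06 for AT2G01220. For AT4G32160 it gave 1.15 against -0.62, with opposite signs. On CLH the brighter set was past the fold in 9 pairs, the dimmer set had the same sign in 6 of them and was past the fold in 1. Pairs with only the dimmer set past the fold occurred on CLH too, as for SAMDC, at -1.59 against -0.16. The genes named on CLH alone thus rest on the comparison, CLH against CLL, where probe sets for the same gene were farther apart.

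**Figure D5:**
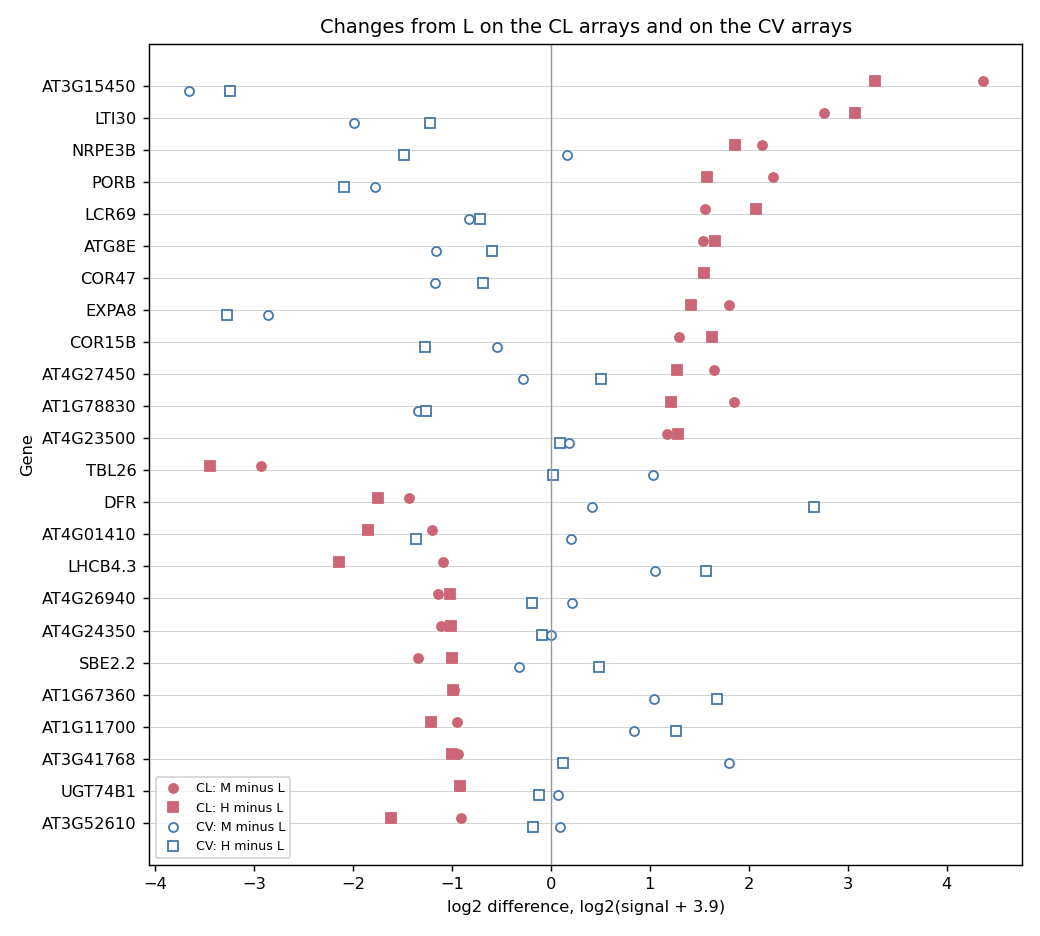
The log2 differences from L for the 24 named genes, with filled marks for the CL arrays and open marks for the CV arrays, circles for M minus L and squares for H minus L. For AT3G15450, LTI30, PORB and EXPA8 the filled marks lie right of 0 and the open marks left of it, and for LHCB4.3, AT1G67360 and AT1G11700 the marks lie the other way round.

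The CV arrays have their own L array, CVL, so they were set beside the CL arrays. Of the 68 probe sets higher on both CLM and CLH, 18 (26.5%) were lower past the fold on both CVM and CVH than on CVL, and 3 (4.41%) were higher. Of the 35 lower on CLM and CLH, 8 (22.9%) were higher past the fold on both CVM and CVH and 0 lower. Over all 4501 probe sets, 1.31% were higher past the fold on both CV arrays and 1.22% lower. AT3G15450 had 5.4 on CVM and 8.5 on CVH, against 113.4 on CVL, and EXPA8 had 67.7 and 49.6, against 513.9 on CVL. Both genes were thus low on M and H where the code starts with CV and high on M and H where it starts with CL. PORB had 429.3 and 343.9, against 1475.6 on CVL, which is close to the 1470 of CLM. LHCB4.3 had 1316.0 and 1875.5, against 632.0 on CVL, higher than its L array where on the CL arrays it was lower. With 1 array per code, the difference between the starts could not be tested.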

How the data were processed

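The deposited values are intensity signals on a linear scale, 1 column per array, from single-channel Affymetrix Arabidopsis arrays hybridised with biotin-labelled cRNA, per the labels. Trimming 2% from each end gave a mean of 100.2 on all 6 arrays, so the authors' values share a scale, and medians from 20.0 to 26.2 show that they were not quantile normalized. The name of the software was not given in the sources used, and the number of arrays limits the precision.

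From these, log2(signal + 3.9) was computed for 8247 probe sets after leaving out 50 controls, and 4501 with a mean of 20 or more over CLM, CLH and CLL were kept. The offset equals the 20th percentile of the deposited values. Each code had 1 array, so sizes are given with no test, and the groups were taken from the codes in the labels. Genes were named from the platform annotation and the TAIR10.1 table, with 1892 of the kept probe sets pairing with 1 gene, 38 with several and 2571 with none, and 1 probe set (the brightest) per gene. Of 34 gene lists, 11 had 3 or more measured genes, 11 had 1 or 2 and 12 had none. Named genes are the 12 per direction with signals of 10 or more on all 3 arrays, the same sign at M and H and the largest smaller difference. To these come 6 per direction with a signal under 10 on some array. A further 4 per direction were taken past the fold at 1 ending only, with opposite signs, and between CLH and CLM. From each list up to 4 members were planned, and for some lists every measured member is given. In the group of dim genes 3 qualified upward, and at M only 2 did. The members and lists were chosen with earlier results of these data known. The ribosomal list came from gene synonyms and a hand-made list of loci, and it and the alternative of probe sets with the plain _at ending were added after the data had been seen. Promoter sequences were not used here. Other offsets, scalings and filters were tried, the counting was tested on simulated data, and Python 3.11.15 with pandas 2.3.3 and numpy 2.4.6 was used.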

Additional observations from a re-analysis of the deposited data

Results flagged for a closer look

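In 17 of 33 genes named for the same sign at M and H, both CL arrays lay on one side of CLL and both CV arrays on the other side of CVL. Over all 4501 probe sets kept, 31.5% were higher and 29.9% lower on both CV arrays than on CVL, whatever the size. The difference was not tested in any of them, because each code had 1 array. The size given is the mean difference from L on the CL arrays minus that on the CV arrays, on the log2 scale.

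Of the genes higher on CLM and CLH, 9 were lower on CVM and CVH. The size was 4.67 for EXPA8, 4.52 for LTI30 and 3.84 for PORB. The 7.27 for AT3G15450 depends on the offset, since its signals were 5.4 on CVM and 8.5 on CVH, and it is no measured fold. It was 2.84 for AT1G78830, 2.58 for LCR69, 2.47 for ATG8E, 2.47 for COR47 and 2.37 for COR15B. They include the dehydrins and COR15B of cold and drought protection, the chlorophyll enzyme PORB and the wall protein EXPA8.

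Of the genes lower on CLM and CLH, the size was -3.71 for TBL26, -2.92 for LHCB4.3, -2.35 for AT1G67360, -2.13 for AT1G11700 and -1.93 for AT3G41768. TBL26 was close to CVL on CVH, with a difference of 0.02, and so was AT3G41768, with 0.13. AT1G09230 was close to CLL on CLM, with signals of 32.9 and 35.1, so its side of CLL there is unsure. The -3.12 for DFR, -6.89 for CSLA01 and -1.82 for AT1G09230 depend on the offset and are no measured folds, since DFR had 5.3 on CVM and 3.0 on CVL, and on CLH CSLA01 had 3.3 and AT1G09230 had 4.8. CSLA01 had 930.5 on CVM and 706.6 on CVH, against 358.9 on CVL.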

How the results depend on the processing

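No paired analysis was possible because each code had 1 array, so no result comes from a test. No result that was called changed its sign under any of the alternatives tried. An offset of 1, a floor of 10 in place of the offset, and a mean of 20 over all 6 arrays left every count of probe sets within 1.5 times of its value. Counts moved as follows.

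Counts are given as up and down past the fold on CLM, on CLH, and on CLH against CLM. With an offset of 16, 73 and 61 probe sets were past it on CLM, 103 were down on CLH, and 55 and 77 separated CLH from CLM. With a mean of 50 or more, the counts were 69 and 58 on CLM, 108 down on CLH, and 48 and 72 between CLH and CLM. With no filter they were 450 and 428, 472 and 618, and 416 and 537. With the plain _at ending alone, an alternative chosen after seeing the data, they were 69 and 66 on CLM, 86 up on CLH and 60 up between CLH and CLM.

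In the same direction at M and H, the 68 up and 35 down became 42 up with an offset of 16, 177 and 164 with no filter, and 36 and 18 with the plain _at ending. At M only, the 10 up and 21 down became 6 and 7 with an offset of 16, 2 and 5 with a mean of 50 or more, 96 and 73 with no filter, and 5 up with the plain ending. At H only, the 15 up and 48 down became 9 and 16 with an offset of 16, 21 down with a mean of 50 or more, and 107 and 125 with no filter. Of opposite signs, the 24 higher on CLM and 20 higher on CLH became 6 and 12 with an offset of 16, 11 and 11 with a mean of 50 or more, and 95 and 83 with no filter. Fewer probe sets enter with the higher mean or the plain ending, and more with no filter.

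Of list medians, the cold and drought median on CLM, 1.07, was 0.94 with an offset of 16, 0.94 after quantile normalization and 0.84 with the plain ending. The cell wall median on CLH, -1.09, was -0.98 with an offset of 16, -0.95 after quantile normalization, -0.95 after centring and -0.72 with no filter. The auxin median on CLH, 0.94, was 1.02 after quantile normalization, 1.08 after centring, 1.15 with a mean of 50 or more and with a mean of 20 over all 6 arrays, and 0.38 with no filter. On CLM it was 0.35, 0.08 with either of those means and -0.01 with no filter. Single-gene differences were followed in the same way, 116 in all, but many of them were inside the fold from the start and could not move in. With the offset of 16, 22 moved inside the fold, and 4 did so after quantile normalization and 4 after centring. The share among differences that began past the fold is therefore larger than these counts out of 116.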
